A study of Mus musculus with 6 samples.

Results

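The Schlafen genes of mouse chromosome 11 encode a family of proteins that are induced by interferon and have been tied to cell growth and to defence against viruses. The 7 genes described here, Slfn1, Slfn2, Slfn3, Slfn4, Slfn5, Slfn8 and Slfn9, were taken by symbol through their Ensembl gene IDs, and all 7 had a row among the 52856 rows of the count table. Expression was measured by RNA-seq in 6 libraries of CD4+ T cells, which hold the T helper cells, from the spleen of C57BL/6 mice aged 8 weeks. The miPEP31 KO group held 3 libraries from miPEP31-/- mice, which lack miPEP31, a micropeptide read from the precursor RNA of miR-31, and the WT group held 3 libraries from wild-type mice. The cells of both groups had been stimulated for 48 hours with antibodies to CD3 and CD28, so no unstimulated cells stand beside them. The labels name neither the cells in which the deletion acts nor whether each library came from its own mouse, so p-values measure the spread between these libraries, which may be technical.

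Schlafen proteins share an N-terminal domain that in several members binds or cuts transfer RNA and ribosomal RNA. Short members consist of little more than that domain, intermediate members carry an added linker region, and long members add a C-terminal part resembling RNA helicases. In mouse T cells the family is best known for quiescence: mice with the elektra mutation of Slfn2 have T cells that cannot keep a resting state and die when activated. Many members are targets of type I interferon through the transcription factor complex ISGF3, which binds interferon-stimulated response elements in promoters.

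Mir31 (ENSMUSG00000065408), the microRNA gene whose precursor carries the targeted reading frame, had 0 counts in the 3 KO and the 3 WT libraries, so the deletion could not be checked in these counts. Totals ranged from 22865450 to 26295735 counts in KO libraries and from 23398443 to 24018635 in WT libraries. Of 14387 genes tested, 3609 were higher in the KO and 3197 lower; which direction held more genes changed with the scaling. The CD4 T cell markers Cd3d, Cd3e, Cd3g, Cd4, Cd28, Trac, Trbc2 and Cd5 were all present, with a sum of 1868 to 1923 CPM (the count of a gene scaled to a library total of 1000000) in KO and 1884 to 2013 CPM in WT. Of these 8 genes 6 were lower in KO, Cd4 among them, and Cd5 was higher. Markers of other cells moved with genotype in part. The 7 B cell markers summed to 350.0 to 739.5 CPM in KO and 242 to 339 CPM in WT, and 4 of them were higher. The 2 CD8 T cell markers summed to 15.97 to 37.5 CPM in KO and 12.3 to 15.5 CPM in WT. In KO both sums were highest in replicate 3, the library with the lowest values of all 7 Schlafen genes. The 5 NK cell markers, of which Eomes carried most, summed to 22.2, 16.7 and 11.3 CPM in KO replicates 1, 2 and 3, and to 5.60 to 7.80 CPM in WT. That is the order of all 7 Schlafen genes in KO. The 10 macrophage and monocyte markers had it too, at 66.0, 43.7 and 34.5 CPM in KO replicates 1, 2 and 3. The 7 dendritic cell markers summed to 112 to 131 CPM in KO and 22.4 to 27.7 CPM in WT. Batf3 made up most of the dendritic cell sum and Clec9a had 0 counts throughout. Erythroid markers reached at most 0.656 CPM in KO and 2.09 CPM in WT, and megakaryocyte markers 5.38 CPM in KO and 2.58 CPM in WT. Within KO both of these low sums were highest in replicate 3. The part of these markers in the Schlafen results was not tested.

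Promoters are shown first, for the 3 members that held a match to the interferon-stimulated response element and for Slfn2, the most abundant member, which held none. Each window covers 250 bases before and 50 after an annotated start, from RefSeq on GRCm38.p6, and is written 5′ to 3′ on the strand of the gene. Capitals mark the response element, searched as GAAA, any 2 bases and GAAA, or, where the match lies on the other strand, their reverse complement.
Slfn5, chr11:82951852-82952151, plus strand: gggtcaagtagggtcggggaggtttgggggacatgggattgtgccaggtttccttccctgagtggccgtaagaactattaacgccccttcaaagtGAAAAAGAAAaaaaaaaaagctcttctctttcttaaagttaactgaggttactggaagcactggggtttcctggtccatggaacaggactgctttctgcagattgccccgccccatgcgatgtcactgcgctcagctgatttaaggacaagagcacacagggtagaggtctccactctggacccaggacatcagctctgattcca
Slfn8, chr11:83020761-83021060, minus strand: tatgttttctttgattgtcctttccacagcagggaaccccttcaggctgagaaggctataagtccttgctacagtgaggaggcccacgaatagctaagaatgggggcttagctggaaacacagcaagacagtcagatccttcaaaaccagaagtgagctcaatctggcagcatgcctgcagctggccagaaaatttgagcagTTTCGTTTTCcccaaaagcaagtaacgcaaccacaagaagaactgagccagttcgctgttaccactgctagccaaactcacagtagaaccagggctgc
Slfn9, chr11:82991781-82992080, minus strand: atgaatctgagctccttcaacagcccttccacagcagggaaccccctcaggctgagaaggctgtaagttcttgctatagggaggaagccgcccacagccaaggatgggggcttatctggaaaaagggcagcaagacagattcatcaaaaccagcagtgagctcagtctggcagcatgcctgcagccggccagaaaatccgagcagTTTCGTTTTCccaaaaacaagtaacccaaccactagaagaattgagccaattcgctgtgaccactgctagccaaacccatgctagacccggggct
Slfn2, chr11:83064862-83065161, plus strand: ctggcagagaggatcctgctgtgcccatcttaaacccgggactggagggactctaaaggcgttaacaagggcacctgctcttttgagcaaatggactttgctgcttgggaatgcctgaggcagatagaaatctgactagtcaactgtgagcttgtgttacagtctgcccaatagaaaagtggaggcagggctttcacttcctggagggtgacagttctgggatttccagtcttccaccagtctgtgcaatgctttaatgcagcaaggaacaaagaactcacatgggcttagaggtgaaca

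All 7 members matched a promoter in that table, with 8 windows in all because Slfn8 has a pair of overlapping ones. The response element, searched on both strands, was found in Slfn5, Slfn8 and Slfn9, that is, in 3 of the 7 members. These 3 are the long ones among the 7, and the window of Slfn14, another Schlafen gene of the cluster, held no match. Among 27025 genes with a promoter window 3.99% held the response element. The match began 155 bases before the start in Slfn5, 48 in the Slfn8 window shown and 45 in Slfn9. Slfn8 and Slfn9 carried the same 10 letters, and their windows were 84.9% identical over 292 aligned bases. The gamma-activated site TTC, any 3 bases and GAA, searched on both strands, was in none of the members' windows and in 9.55% of all genes. The Slfn5 window lies inside the gene as given below, since RefSeq places its start further in. Matches are a description of these letters, and windows without one say nothing about binding.

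All 7 Schlafen genes were higher in activated T cells without miPEP31, and in each of them the 3 KO libraries lay above the 3 WT libraries. The background was high: of all tested genes 47.3% passed the test, 25.1% as higher and 22.2% as lower, and 34.0% had all KO libraries above all WT libraries. The members' median log2 fold change was 2.06, while the median over all tested genes was 0.01. Rises of at least 2-fold were seen in 6 members, and Slfn3 rose least. Slfn9, the lowest of these 6, had rank 749 by size of rise among the 14387 tested genes. For comparison, Cd79a, just above 2-fold with a log2 fold change of 1.04, had rank 1020. In bulk RNA, a larger share of cells that carry a transcript and more of it per cell cannot be told apart.

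Of the short members, Slfn2 was the most abundant Schlafen gene in both groups. Its protein binds transfer RNA and protects it from cleavage by angiogenin in activated mouse T cells. Slfn2 (ENSMUSG00000072620, chromosome 11, 83065112 to 83070678 on GRCm38) had 412, 299 and 254 CPM in KO replicates 1, 2 and 3, against 74.8, 78.0 and 87.6 CPM in WT replicates 1, 2 and 3. The lowest KO library stood well above the highest WT library. The mean was 321 ± 81.5 CPM in KO and 80.1 ± 6.65 CPM in WT (SD, n = 3 each), a 3.89-fold rise (log2 fold change 1.96 with SE 0.17, adjusted p = 9.39e-05 by the quasi-likelihood test of edgeR).

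Slfn1, the founding member, arrests the growth of thymocytes and fibroblasts when it is overexpressed in mice or mouse cells. Slfn1 (ENSMUSG00000078763, 83116849 to 83122670) had 128, 107 and 82.1 CPM in KO libraries, against 18.4, 16.2 and 15.5 CPM in WT libraries. It rose 6.13-fold, further than Slfn2 in size (log2 fold change 2.62 with SE 0.17, adjusted p = 2.24e-05 by edgeR). The ratio of Slfn1 to Slfn2 CPM was 0.311, 0.357 and 0.324 in KO libraries, against 0.246, 0.207 and 0.177 in WT libraries. These ratios did not overlap, and the exact permutation test gave p = 0.1, the smallest that 3 against 3 libraries allow, two-sided and also after adjustment over the 3 ratios computed.

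**Figure D1:**
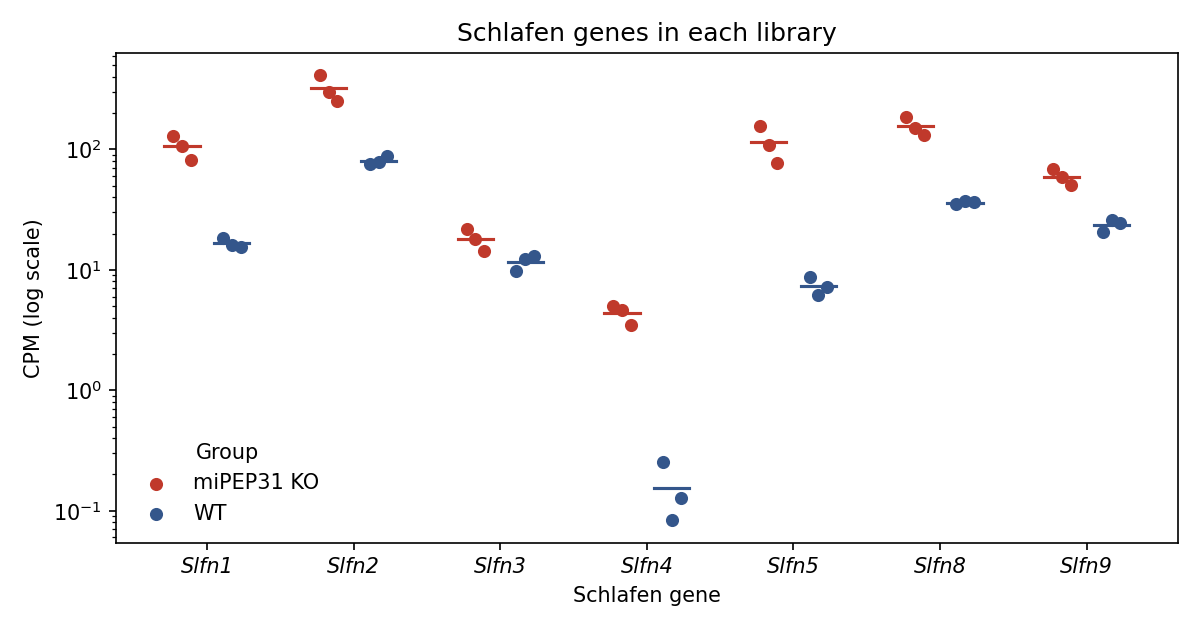
Expression of the 7 Schlafen genes in each library. The vertical axis is CPM on a log scale, points are the 3 libraries of a group (miPEP31 KO left, WT right of each pair) and bars their means; Slfn4 lies lowest in both groups, and for Slfn3 the groups come closest, at 14.3 CPM in the lowest KO and 13.0 CPM in the highest WT library.

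The intermediate members Slfn4 and Slfn3 lie next to each other and differed widely in their rise. Slfn4 is known mainly from myeloid cells, where interferon induces it, and it marks a set of suppressive myeloid cells in the mouse stomach. Slfn4 (ENSMUSG00000000204, 83175186 to 83190216) had 115, 122 and 80 counts in KO libraries, against 6, 2 and 3 counts in WT libraries, or 4.99, 4.64 and 3.5 CPM in KO and 0.256, 0.0833 and 0.128 CPM in WT. The gene was thus close to the detection limit in WT and low in KO. Its rise was the largest in the family, 26.5-fold (log2 fold change 4.73 with SE 0.37, adjusted p = 5.50e-05 by edgeR). The 10 markers of macrophages and monocytes summed to 34.5 to 66.0 CPM in KO and 6.37 to 9.58 CPM in WT, but 3 of them had enough counts to be tested and they did not move together. Mpeg1 was higher, carrying most of the sum in KO at 28.3 to 63.0 CPM in KO and 0.916 to 1.71 CPM in WT. Itgam was lower, with means of 0.142 CPM in KO and 0.677 CPM in WT (adjusted p = 0.0395 by edgeR), and Cd68 missed the threshold, with 3.97 CPM in KO and 5.38 CPM in WT. The genes Adgre1, Fcgr1 and C1qb had 0 counts in all 6 libraries, and Csf1r reached at most 0.131 CPM in KO and 0.125 CPM in WT. Lyz2, with too few counts to be tested, had 5, 7 and 10 counts in KO libraries, against 0, 0 and 1 in WT libraries. The part of such cells in the Slfn4 result was not tested. Of the 7 neutrophil markers S100a8, S100a9, Elane and Camp had 0 counts in all 6 libraries, and the sum was at most 0.228 CPM in KO and 1.45 CPM in WT.

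Slfn3, which promotes enterocyte differentiation in rodent gut, changed least. Slfn3 (ENSMUSG00000018986, 83191330 to 83215154) had 21.8, 18.0 and 14.3 CPM in KO libraries, against 9.71, 12.4 and 13.0 CPM in WT libraries. The groups did not overlap, but the lowest KO library was close to the highest WT library. It rose 1.5-fold (log2 fold change 0.58 with SE 0.18, adjusted p = 0.0272 by edgeR). This call disappeared without KO replicate 1 (log2 fold change 0.41, edgeR adjusted p = 0.0508), KO replicate 2 (0.58, edgeR adjusted p = 0.0778), WT replicate 1 (0.46, edgeR adjusted p = 0.0992) or WT replicate 2 (0.62, edgeR adjusted p = 0.0649). The ratio of Slfn4 to Slfn3 CPM was 0.229, 0.257 and 0.245 in KO libraries, against 0.0263, 0.00673 and 0.00987 in WT libraries (exact permutation p = 0.1, the smallest possible).

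Among the long members, Slfn5 had the largest rise. It is a nuclear protein, and human SLFN5 is described as a corepressor of interferon-induced genes. Slfn5 (ENSMUSG00000054404, 82951349 to 82964840) had 157, 109 and 77.3 CPM in KO libraries, against 8.65, 6.12 and 7.27 CPM in WT libraries. The KO libraries were far from the WT libraries and also differed among themselves, with 2.03 times as much in KO replicate 1 as in KO replicate 3. Slfn5 rose 15.1-fold (log2 fold change 3.92 with SE 0.28, adjusted p = 3.79e-05 by edgeR). Of its merged exons 8.84% overlap the antisense gene Slfn5os, which had 0 counts in all 6 libraries. The use of strand in counting was not given in the sources used here.

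Slfn8 and Slfn9 are close relatives of the human genes SLFN11 and SLFN13, whose products cut transfer RNA. Slfn8 (ENSMUSG00000035208, 83002158 to 83020810) had 186, 151 and 131 CPM in KO libraries, against 35.0, 37.1 and 36.4 CPM in WT libraries. WT libraries were nearly level and all KO libraries far above them. It rose 4.18-fold (log2 fold change 2.06 with SE 0.13, adjusted p = 2.02e-05 by edgeR). Slfn9 (ENSMUSG00000069793, 82978390 to 82991830) had 68.4, 58.6 and 50.6 CPM in KO libraries, against 20.6, 25.8 and 24.6 CPM in WT libraries. Its groups were also apart, with a smaller rise of 2.43-fold (log2 fold change 1.28 with SE 0.13, adjusted p = 1.86e-04 by edgeR). The ratio of Slfn9 to Slfn8 CPM was 0.367, 0.389 and 0.386 in KO libraries, against 0.588, 0.696 and 0.676 in WT libraries (exact permutation p = 0.1, the smallest possible).

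**Figure D2:**
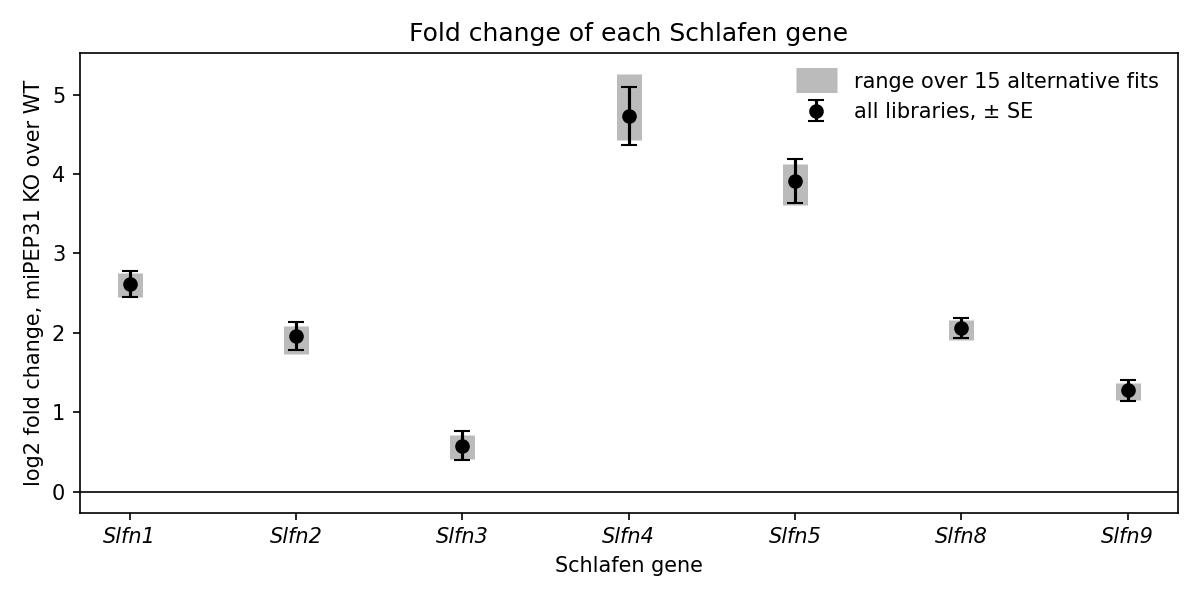
Log2 fold change of each Schlafen gene, miPEP31 KO over WT. Points are the edgeR estimates from all 6 libraries with bars of 1 SE, and grey bands span 15 alternative fits; each band lies above 0, and Slfn3 at 0.58 is the lowest and Slfn4 at 4.73 the highest.

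Reads from near-identical members can be counted to the wrong gene, so sequence likeness was measured. Coding sequences are 1011 bases long in Slfn1 and 1134 in Slfn2, 1920 in Slfn3 and 1806 in Slfn4, 2652 in Slfn5, and 2730 in both Slfn8 and Slfn9. Over their aligned bases Slfn8 and Slfn9 are 92.7% identical and Slfn3 and Slfn4 are 92.3% identical, while the other pairs lie between 57.6% and 75.3%. The share of 50-base stretches that also occur in another Schlafen gene was 14.6% for Slfn8, 11.2% for Slfn9, 8.15% for Slfn4, 7.39% for Slfn3, 4.27% for Slfn2, 0.606% for Slfn1 and 0 for Slfn5. The main partner of both Slfn8 and Slfn9 was the pseudogene Slfn10-ps. At 100 bases these shares were 3.38% for Slfn8, 3.71% for Slfn9 and at most 0.128% for the others. No read length was given in the sources used here.

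Deposited counts showed fractions for part of the family. Slfn3, Slfn5, Slfn8 and Slfn9 had values that were not whole in all 6 libraries and Slfn4 in 1, whereas Slfn1 and Slfn2 had whole counts throughout. Fractions and shared stretches matched only in part. Slfn5 shared no stretch with the Schlafen genes compared, and Slfn4, at 8.15%, had fractions in 1 library. Stretches shared with Slfn5os or with genes outside the family were not measured, and the source of the fractions was not tested. Because of their sequence likeness, the levels of Slfn3, Slfn4, Slfn8 and Slfn9 are uncertain as single genes. Summed before the fit, Slfn3 with Slfn4 rose by 0.88 on the log2 scale (SE 0.17, edgeR adjusted p = 0.00398) and Slfn8 with Slfn9 by 1.80 (SE 0.13, edgeR adjusted p = 3.63e-05). In that fit all 5 resulting rows, with Slfn1, Slfn2 and Slfn5, were higher in KO. The sums left out Slfn10-ps, the main partner of Slfn8 and Slfn9, so reads shared with it stayed uncertain.

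Levels of different genes were compared per kilobase of merged exons. In KO the order by mean CPM per kb was Slfn2 (193 ± 49.0), Slfn1 (56.6 ± 12.3), Slfn8 (38.2 ± 6.84), Slfn5 (18.1 ± 6.37), Slfn9 (9.93 ± 1.49), Slfn3 (5.29 ± 1.11) and Slfn4 (1.10 ± 0.197; SD, n = 3). In WT it was Slfn2 (48.2 ± 4.0), Slfn1 (8.95 ± 0.836), Slfn8 (8.84 ± 0.259), Slfn9 (3.97 ± 0.460), Slfn3 (3.43 ± 0.510), Slfn5 (1.16 ± 0.200) and Slfn4 (0.0393 ± 0.0226; SD, n = 3). Slfn1 and Slfn8 overlapped between libraries in both groups, as did Slfn9 and Slfn3 in WT, and the other neighbours in these orders did not. Slfn5 had rank 4 in KO and rank 6 in WT.

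The summed level of the 7 genes was 406, 307 and 254 CPM per kb in KO libraries, against 71.2, 73.5 and 79.0 CPM per kb in WT libraries. Slfn2 made up most of it, at 58.4% to 61.0% in KO and 63.2% to 66.7% in WT. The share of Slfn1 was 16.9% to 18.6% in KO and 10.5% to 13.9% in WT, and that of Slfn5 was 4.80% to 6.13% in KO and 1.32% to 1.92% in WT. Slfn3 took 1.58% to 1.72% in KO and 4.0% to 4.93% in WT, and Slfn9 2.83% to 3.34% in KO and 4.85% to 5.88% in WT. The share of Slfn8 overlapped, at 11.2% to 12.6% in KO and 11.3% to 12.3% in WT. Shares are descriptions and were not tested.

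**Figure D3:**
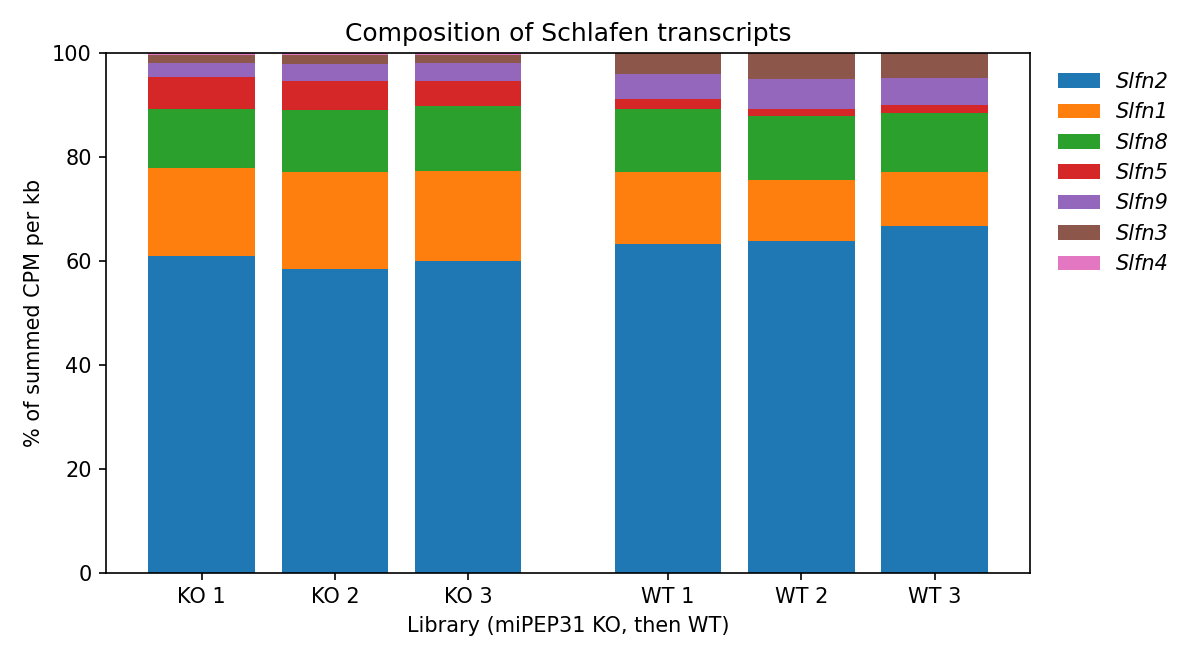
Share of each Schlafen gene in the summed CPM per kb of the 7 genes, in percent, for each library (miPEP31 KO 1 to 3, then WT 1 to 3). Slfn2 fills the largest part of every bar, and the Slfn5 band is wider in KO (4.80% to 6.13%) than in WT (1.32% to 1.92%).

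The 7 genes span 264 kb, 5 of them on the plus strand and Slfn8 and Slfn9 on the minus strand. Of the other Schlafen genes, the pseudogene Slfn10-ps between Slfn8 and Slfn2 rose as well, with 48.8, 38.5 and 28.1 CPM in KO libraries, against 11.6, 13.2 and 12.5 CPM in WT libraries (log2 fold change 1.58, SE 0.19, edgeR adjusted p = 3.82e-04). It shares 19.7% of its 50-base stretches with other members, 13.5% with Slfn9, so its level is uncertain too. Slfn14 had 2 counts in KO replicate 2 and 0 in the other 5 libraries, and Slfnl1, which lies on chromosome 4, had 1 count in KO replicate 3 and 0 elsewhere.

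The 5 nearest protein-coding genes on each side of the cluster were examined for comparison. Of these 10 genes 5 had enough counts to be tested, 1 was higher and 4 did not pass, while 25.1% of all tested genes were higher. Ap2b1, which encodes a subunit of the clathrin adaptor AP-2, was higher by 0.29 in log2 fold change (SE 0.06, adjusted p = 0.00465 by edgeR), with 191, 210.4 and 210.0 CPM in KO libraries, against 165, 160.1 and 159 CPM in WT libraries. Log2 fold changes were 0.05 for Rffl, 0.08 for Rad51d and -0.05 for Nle1. The genes Fndc8, Unc45b, Rasl10b, Gas2l2 and 1700020L24Rik were at or below 0.260 CPM in every KO library and 0.256 CPM in every WT library.

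**Figure D4:**
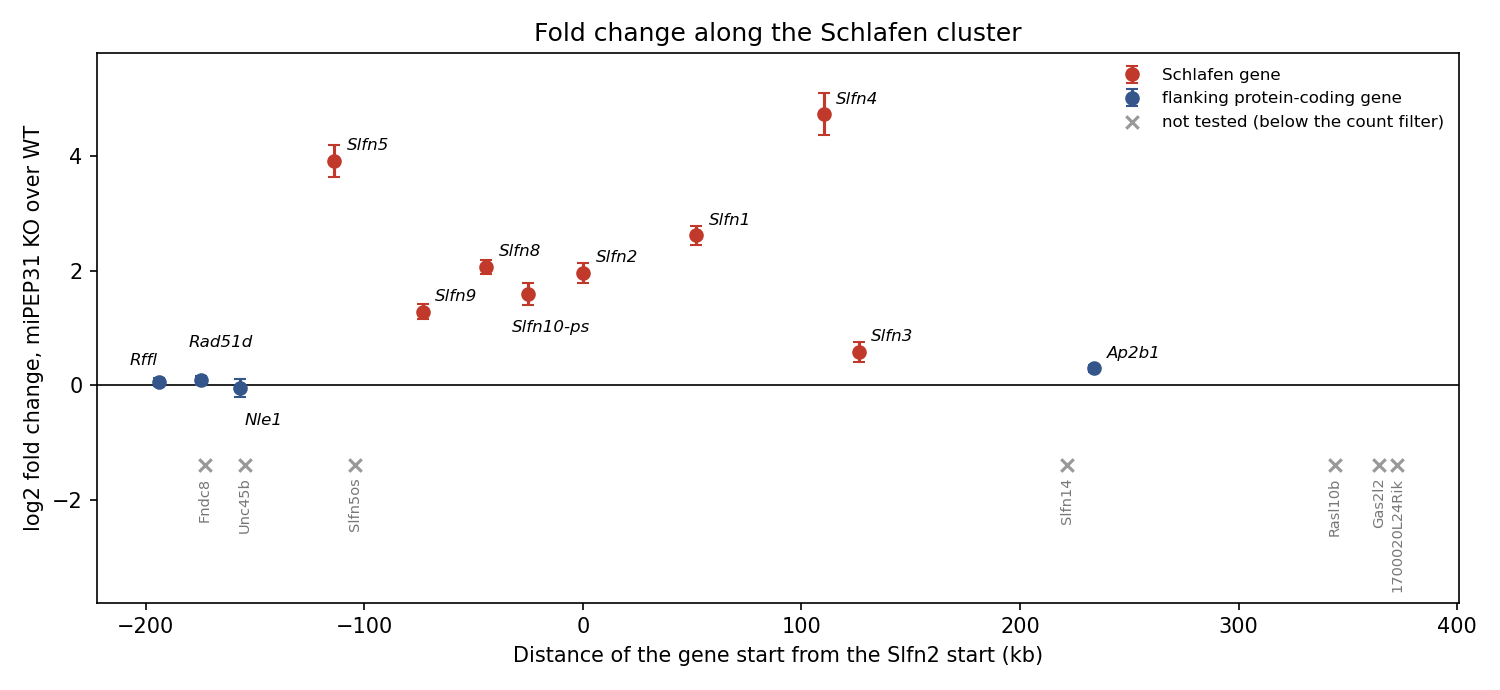
Log2 fold change (miPEP31 KO over WT, bars of 1 SE) against the distance of each gene start from the start of Slfn2 in kb, for Schlafen genes (red) and flanking protein-coding genes (blue). Crosses set below the zero line mark genes with too few counts to test and carry no value; the tested flanking genes shown lie between -0.05 and 0.29 and tested Schlafen genes between 0.58 and 4.73.

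The KO libraries were not alike. In all 7 members KO replicate 1 was the highest and KO replicate 3 the lowest, and the ratio between them was smallest for Slfn9 (1.35) and largest for Slfn5 (2.03). Relative to the WT mean of log2(CPM + 0.1), Slfn5 stood at 4.42, 3.88 and 3.39 in KO replicates 1, 2 and 3, and Slfn2 at 2.36, 1.90 and 1.66. The interferon-induced genes Irf7 and Usp18 had the same order, at 6.53, 6.34 and 5.97 for Irf7 and 3.41, 2.86 and 2.34 for Usp18. Genes for the ISGF3 subunits Stat2 and Irf9 did not: Stat2 stood at 1.82, 1.94 and 1.99 and Irf9 at 2.07, 2.06 and 2.18. With 3 libraries these orders are a description only.

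**Figure D5:**
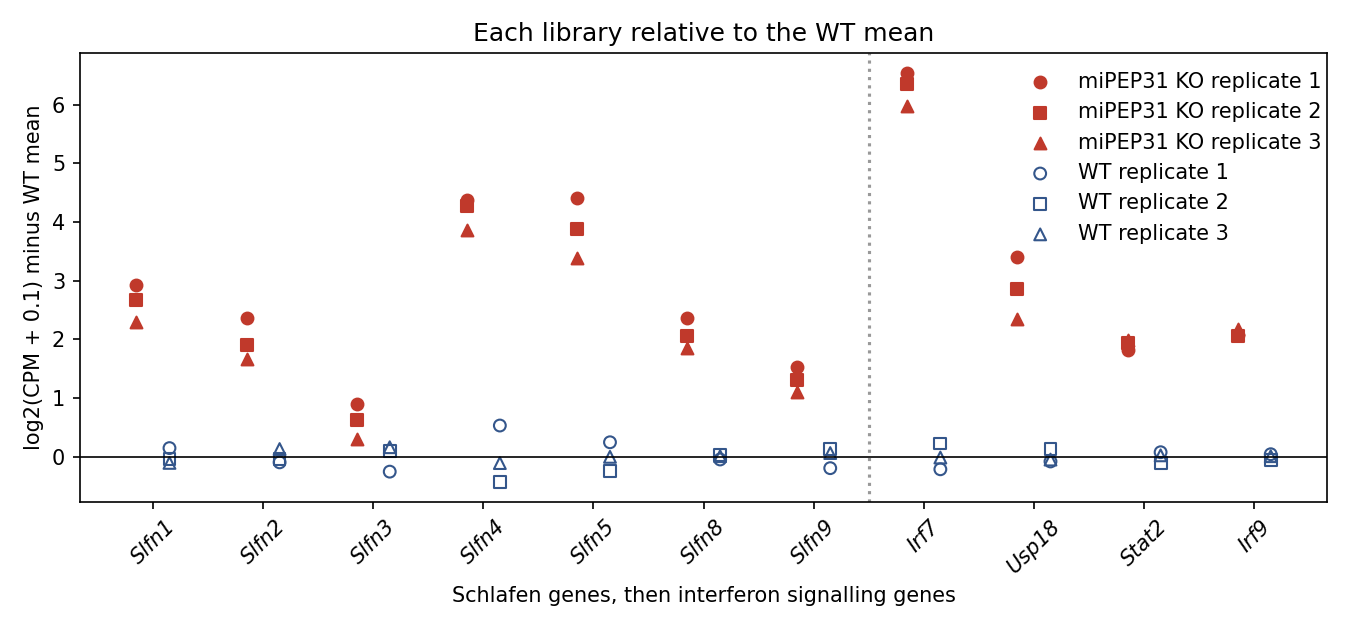
Each library's log2(CPM + 0.1) minus the WT mean for the 7 Schlafen genes and 4 interferon signalling genes (filled red, miPEP31 KO; open blue, WT; symbols mark the replicate). KO replicate 1 lies highest and KO replicate 3 lowest for all 7 Schlafen genes, for Irf7 and for Usp18, while Stat2 and Irf9 lie within a narrow range in KO.

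Genes of the interferon pathway upstream of the family were examined as a list. Of 15 genes tested 10 passed as higher, 0 as lower and 5 missed the threshold, and their median log2 fold change was 0.59. Over all tested genes 25.1% passed as higher and 22.2% as lower. Log2 fold changes were 6.31 (SE 0.19) for Irf7, which amplifies interferon production, 2.06 (SE 0.07) for Irf9, the DNA-binding subunit of ISGF3, and 1.87 (SE 0.07) for Stat2, with adjusted p between 1.24e-06 and 3.11e-06 by edgeR. Receptor and kinase genes differed less: Ifnar2 was higher by 0.23 (SE 0.07, edgeR adjusted p = 0.0237) and Tyk2 by 0.59 (SE 0.06), whereas Ifnar1 (0.11), Jak1 (0.13), Ifngr1 (-0.12), Ifngr2 (0.15) and Jak2 (-0.02) did not pass.

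Genes tied to the known roles of Slfn2 went several ways. For both lists below, the shares over all tested genes were 25.1% higher and 22.2% lower. In the list on transfer RNA protection 5 of 10 genes were tested, of which 1 passed as higher, 1 as lower and 3 missed the threshold. Nsun2 and Trdmt1, which encode methyltransferases that modify transfer RNA, had log2 fold changes of -0.71 (SE 0.10) and 0.73 (SE 0.17). Angiogenin itself was nearly absent, with Ang at 0.0868, 0.342 and 0.0875 CPM in KO libraries, against 0, 0.0416 and 0.0427 CPM in WT libraries. Its inhibitor Rnh1 had 140.5, 158 and 182 CPM in KO libraries, against 145, 139.7 and 146 CPM in WT libraries, with a log2 fold change of 0.11 that missed the threshold (adjusted p = 0.351 by edgeR). The quiescence list had 20 tested genes: 3 passed as higher, 11 as lower and 6 missed the threshold, and their median log2 fold change was -0.32. Among transcription factor genes of that list Ets1 fell by 1.40 (SE 0.13), Bach2 by 1.15 (SE 0.08) and Lef1 by 0.68 (SE 0.05) in log2 fold change, with adjusted p between 3.90e-05 and 1.43e-04 by edgeR. Klf6 was higher by 1.07 (SE 0.10) and Klf4 by 1.21 (SE 0.20), and both encode transcription factors too. Klf2, the other Klf gene of the list, was lower, with a log2 fold change of -1.27 (SE 0.25, adjusted p = 0.00407 by edgeR).

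The genes most like each member were found by the distance between centred log2(CPM + 0.5) profiles over the 6 libraries, among 11050 genes with a mean of at least 1 CPM. For Slfn1 the nearest were Trim12a (distance 0.118), Bst2 (0.211) and Gvin1 (0.242). Slfn2 was nearest to Slc2a6 (0.138), Hist1h1c (0.195) and Casp4 (0.203), and Slfn8 to Endod1 (0.178), Ell2 (0.186) and Tor3a (0.217). The nearest genes to Slfn5 were Ifih1 (0.224), Phf11a (0.279) and Ddx60 (0.465). Slfn9 had Zfp947 (0.17) and Parp9 (0.191) among its nearest, Slfn4 had Gbp6 (0.290), Bst2 (0.385) and Il1rn (0.386), and Slfn3 had Cep78 (0.178), Rpusd2 (0.180) and Egr2 (0.194). Within the family the nearest pair was Slfn2 and Slfn8, at 0.248, and the farthest was Slfn3 and Slfn5, at 4.01. The added 0.5 CPM shrinks the profile of Slfn4, whose WT mean was 0.156 CPM, so its distances (2.87 to Slfn3) and its nearest genes, with fitted log2 fold changes of 2.66 to 3.19, depend on it. Zfp947 and Phf11a were near although their fitted log2 fold changes, 1.94 and 5.01, exceeded those of Slfn9 (1.28) and Slfn5 (3.92). The added 0.5 CPM can draw such genes nearer, and its part in these distances was not tested. These profiles share their libraries and their depth, and the distances are descriptions.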

How the data were processed

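RNA was profiled from 3 miPEP31 KO and 3 WT libraries, made with a TruSeq kit per the labels' protocols. Bowtie 0.12.2 and mm8 appear in the submitters' processing notes with no role given. Which program and gene models produced the counts was not given in the sources used here. Estimated counts per gene were deposited by the authors in 52856 rows, of which 944 had MSTRG IDs and no name, and 72.2% of values above 0 were whole. Counts were rounded, filtered with filterByExpr of edgeR 4.0.16 (minimum count 10), scaled by TMM and tested by edgeR's quasi-likelihood test with robust estimation, no covariate and Benjamini-Hochberg adjustment over all 14387 rows, with 0.05 as the threshold. Each SE was obtained by dividing the fitted log2 fold change, without prior count, by the root of its F statistic. CPM are rounded counts over library totals. Symbols, coordinates and merged exon lengths came from GENCODE M21 on GRCm38 by gene ID. Coding sequences were aligned with Biopython 1.88; protein sequences were not used here.

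The named genes were the members, other Schlafen genes, the nearest flanking genes, and, from the 3 lists, the 4 smallest p past the threshold, or both where only 2 passed. Ifnar1, Ifnar2, Tyk2, Jak1, Jak2, Ifngr1, Ifngr2, Ang, Rnh1, Klf2, Klf4 and Klf6 were also named, after their values were seen, as were the 3 ratios between members. Some genes that this rule names are not reported here. The genes most like each member leave out unnamed gene models and pseudogenes. Members and lists were chosen with earlier results of these data known. Alternatives were DESeq2 1.42.0, limma-voom (limma 3.58.1), other scalings and filters, unrounded values, a replicate block, summed paralogs and leaving out each library. Fits were tested on simulated data.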

Additional observations from a re-analysis of the deposited data

How the results depend on the processing

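Over 105 values of the members' log2 fold changes under alternatives other than summed pairs, 100 kept their direction and their side of the threshold, and the other 5 were all of Slfn3. Besides the libraries named above for Slfn3, its call was lost with a replicate block (log2 fold change 0.57, edgeR adjusted p = 0.0690). With that block 6 of the 7 members were called higher, and 3049 genes were higher and 2687 lower over all rows; same-numbered KO and WT libraries did not deviate together (r of -0.0066, 0.019 and -0.038), and the block changed no other member's call. Leaving out 1 library left 6 to 7 members called higher, 2723 to 3655 genes higher and 2419 to 3594 lower. Over all rows 3266 genes were higher and 3473 lower with upper-quartile scaling, where the balance turned, and 4086 were higher and 2840 lower with plain library sizes. Scaling kept all 7 members higher, with Slfn3 between 0.54 with upper-quartile scaling and 0.63 with plain library sizes; its adjusted p was 0.0321 and 0.0190. Depth limits Slfn4 most, since 2 to 6 counts in each WT library set its fold: its log2 fold change lay between 4.43 and 5.26 when 1 library was left out. Slfn14, Slfnl1 and Slfn5os were below what these depths can compare.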
